A study of Mus musculus with 5 samples.

Results

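The genes described here are 9 genes of the neuronal cytoskeleton and growth cone (Dcx, Stmn2, Tubb3, Map2, Mapt, Nefl, Nefm, Prph and Gap43) and Rest, the gene of a repressor of neuronal genes. They were taken by symbol from the gene tables, in which all 10 were found among 55573 genes. RNA was sequenced from 3 tumours of Th-Cre:MYC genotype and from the normal pancreas of 2 littermates of Wild Type genotype. The tumour mice came from a cross of TH-Cre mice with mice that carry a MYC transgene behind a CAG promoter and a floxed stop, so that Cre made in cells using the tyrosine hydroxylase promoter releases MYC. Tumour growth was followed by ultrasound. Before removal, normal pancreas had been perfused with RNase inhibitor, a step that the labels give for that tissue alone. The series title speaks of a neuroblastoma model and its design text of pancreas tumours, and the question it states is how expression differs between the tumours and normal pancreas. The labels used here give no age, sex or batch. The column headers begin with numbers that lie in separate ranges for tumour and normal pancreas, without saying what these stand for. If the groups were handled apart, the effect could not be told from that of tissue. The titles of tumour replicates 1 and 2 carry the same number and that of replicate 3 a different one, without saying if this number stands for an animal. As separate animals are thus not stated, p-values measure only the spread between these libraries, which may be technical.

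Neurons build their axons and dendrites on microtubules made of tubulin, which are bundled and stabilised by associated proteins such as MAP2 in dendrites and tau in axons, and on neurofilaments, which set axon calibre. Growing neurites add a growth cone with its own membrane and microtubule regulators. In most cells outside the nervous system REST binds a DNA element called RE1 and, with corepressors, keeps many neuronal genes silent, and endocrine cells of the islet, like neurons, are known for low REST and for use of part of the neuronal gene set.

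The promoter windows of the members for which RefSeq sequence was at hand are printed because they cover genes that rose together (Dcx, Tubb3, Map2) and a gene of the same class that was near 0 in every library (Prph). The table of RefSeq promoters on GRCm38.p6 held 4 of the 10 members. Each window runs from 250 bases before to 50 after a gene start. Capitals mark 6 motifs searched on both strands. CAGCACC is a core of the left part of RE1, and GGACAGC is a core of its right part. CACGTG is an E-box that MYC with MAX can bind. The others are the TATA box, searched as TATAAA, then the CCAAT box under its own letters, and finally the GC box, searched as GGGCGG. No match overlapped another in these windows.
Dcx promoter window, chrX:143933170-143933469, - strand: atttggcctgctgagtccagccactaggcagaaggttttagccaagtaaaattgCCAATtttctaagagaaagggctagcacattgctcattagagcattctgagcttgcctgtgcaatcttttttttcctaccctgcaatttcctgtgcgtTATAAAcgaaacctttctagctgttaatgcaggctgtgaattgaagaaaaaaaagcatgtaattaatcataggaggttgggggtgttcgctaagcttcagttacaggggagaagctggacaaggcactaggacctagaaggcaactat
Tubb3 promoter window, chr8:123411303-123411602, + strand: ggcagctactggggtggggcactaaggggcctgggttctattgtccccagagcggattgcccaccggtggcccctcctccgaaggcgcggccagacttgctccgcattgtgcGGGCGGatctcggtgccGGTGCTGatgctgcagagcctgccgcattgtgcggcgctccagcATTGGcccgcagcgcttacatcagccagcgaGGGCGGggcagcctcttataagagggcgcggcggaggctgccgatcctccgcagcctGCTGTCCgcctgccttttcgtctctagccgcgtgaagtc
Map2 promoter window, chr1:66175079-66175378, + strand: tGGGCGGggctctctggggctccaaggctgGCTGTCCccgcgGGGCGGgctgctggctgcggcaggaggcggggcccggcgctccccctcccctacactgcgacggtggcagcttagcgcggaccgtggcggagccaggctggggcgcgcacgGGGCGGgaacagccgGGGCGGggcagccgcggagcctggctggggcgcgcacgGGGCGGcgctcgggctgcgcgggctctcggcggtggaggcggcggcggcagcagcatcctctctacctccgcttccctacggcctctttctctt
Prph promoter window, chr15:99054924-99055223, + strand: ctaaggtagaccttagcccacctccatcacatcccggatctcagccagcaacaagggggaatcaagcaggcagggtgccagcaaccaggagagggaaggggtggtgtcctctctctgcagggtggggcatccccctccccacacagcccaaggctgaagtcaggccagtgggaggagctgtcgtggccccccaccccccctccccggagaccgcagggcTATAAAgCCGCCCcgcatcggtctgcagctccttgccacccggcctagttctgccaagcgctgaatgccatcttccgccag
The window of Map2 had 77.7% G and C and 5 GC boxes, against 43.0% and no GC box in the Dcx window printed, where a TATA box and a CCAAT box were found. The median over all 32851 windows of the table was 52.7% G and C. The TATA box, present for Dcx and Prph, was in 13.6% of all windows, the GC box in 35.7% and the CCAAT box in 37.4%. The Tubb3 window held the left core at base 130 and the right core at base 262, counted from its first base, and not beside each other. The left core was in 7.14% of all windows and the right core in 6.56%. The composite CAGCACCNNGGACAGC, with up to 2 mismatches at its fixed letters, was in 0.773% of all windows and in none of the 5 windows of these 4 genes, a second Dcx window included. The E-box was in 7.15% of all windows and in none of the 5.

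The libraries differed in depth and makeup between tumours and normal pancreas. Totals ran from 6611967 to 15074489 estimated counts in the tumours and were 48848987 and 51669489 in normal pancreas, but 13 acinar marker genes took 37.0 to 955 TPM of the tumours and 461000 and 459000 TPM of the normal libraries. The annotated class misc_RNA took 22.0% to 25.3% of tumour counts and at most 0.00116% of normal counts. Mitochondrial ribosomal RNA took 2.31% to 3.6% of tumour counts, against 0.00889% and 0.00737% of normal counts. Protein-coding genes took 62.2% to 68.4% of tumour counts, against 99.2% and 99.3% of normal counts. The part of tissue and of library handling in these shares, and so in the fold changes, was not tested. Beside counts, levels are therefore given on either or both of the scales that follow. CPM set a count against the library size as scaled by TMM, which is a trimmed mean of the ratios between libraries. TPM are the deposited transcript abundances per length, which sum to the same total in every library, so that acinar transcripts leave less of it for the other genes of normal pancreas. Fold changes are tumour over normal pancreas on the log2 scale, from edgeR's quasi-likelihood test with Benjamini-Hochberg adjustment over 16810 genes, and a call is an adjusted p under 0.05. Over all genes tested, log2 fold changes had a median of 0.38 with TMM, 3.55 with total counts only and -6.26 when scaled on secretory granule genes alone. In bulk tissue, fewer cells of a type and less RNA per cell cannot be told apart.

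Of the 10 genes, 7 rose in the tumours (Dcx, Map2, Tubb3, Gap43, Nefm, Nefl and Mapt), none fell, Rest and Stmn2 did not pass the test, and Prph was too low to be tested. Over all genes tested, 39.2% were called higher and 27.8% lower, and over the protein-coding ones 35.3% and 31.1%. In all, 67% were called in either direction. By edgeR no member was lower at an unadjusted p under 0.05 either, and by DESeq2 0 were lower and 7 higher. The 7 were higher under every scaling run but that on granule genes, where 2 were called higher (Gap43 and Nefl) and 5 lower (Tubb3, Map2, Mapt, Rest and Stmn2). Gap43 and Nefl had 0 counts in normal pancreas, so those 2 calls depend on the prior count that edgeR adds. The 9 genes tested had a median log2 fold change of 4.38, against 0.38 over all genes tested. Every tumour lay above both normal libraries in CPM for these 7 genes, as for 46.8% of all genes tested. Members at or near 0 in normal pancreas entered the test only through their tumour counts, so this count and median are a description.

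**Figure D1:**
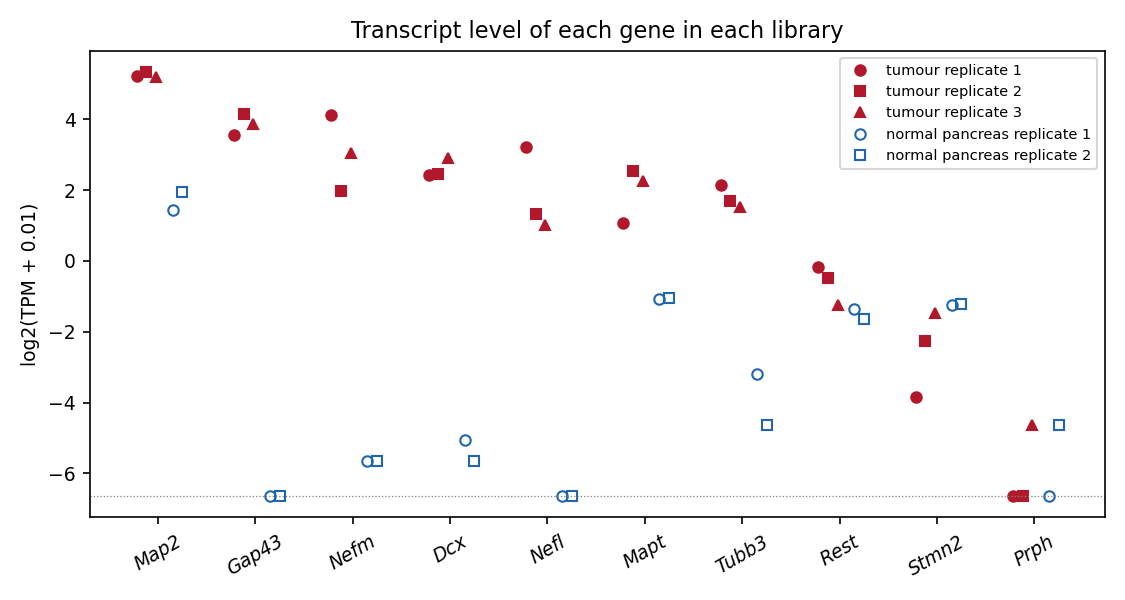
Transcript level of the 10 genes in each library, as log2(TPM + 0.01), with genes ordered by their tumour mean. Filled red symbols are the 3 tumours, open blue symbols the 2 normal pancreas libraries, and the dotted line is 0 TPM. The tumours lie above both normal libraries for Map2, Gap43, Nefm, Dcx, Nefl, Mapt, Tubb3 and, on this scale, Rest, and below them for Stmn2.

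In tumour TPM the order was Map2, Gap43, Nefm, Dcx, Nefl, Mapt, Tubb3, Rest, Stmn2 and Prph. The ranges of Gap43 and Nefm, of Nefm and Dcx, of Dcx and Nefl, of Nefl and Mapt, and of Mapt and Tubb3 overlapped over the 3 tumours. Map2 stood above Gap43 without overlap, and Tubb3, Rest, Stmn2 and Prph were each apart from the next. The most abundant member, Map2, lay at the 98.0 to 98.3 percentile of 21900 protein-coding genes in the tumours and at the 83.6 and 88.0 percentile in normal pancreas.

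Dcx (ENSMUSG00000031285.14, GRCm38 chromosome X, 143855842 to 143933311, - strand) encodes doublecortin, a microtubule protein of young migrating neurons. It had 1553, 1380 and 1099 counts in tumour replicates 1, 2 and 3, against 4 and 2 counts in normal pancreas. On the TPM scale these were 5.37, 5.51 and 7.51 in the tumours, against 0.02 and 0.01 in normal pancreas. Every tumour was far above both normal libraries, and the tumours lay within 1.84 times of each other in CPM. The log2 fold change was 7.86 (SE 0.52, edgeR adjusted p = 6.75e-05). It missed the threshold only when scaled on granule genes (log2 1.15, edgeR adjusted p = 0.258), and its log2 value was 8.45 when normal pancreas replicate 1 was left out.

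Map2 (ENSMUSG00000015222.17, chromosome 1, 66175273 to 66442583, + strand), the gene of the dendritic microtubule protein MAP2, differed from Dcx in that normal pancreas had a clear level of its own. It had 37.15, 40.34 and 36.37 TPM in the tumours, against 2.71 and 3.87 TPM in normal pancreas. In CPM it averaged 172.3 ± 21.5 in the tumours (SD, n = 3), with 35.8 and 40.7 CPM in normal pancreas. The groups did not overlap on either scale, and the tumours differed little among themselves. The log2 change of Map2 was a rise of 2.17 (SE 0.18, edgeR adjusted p = 0.000147).

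Mapt (ENSMUSG00000018411.17, chromosome 11, 104231390 to 104332090, + strand) encodes tau, which stabilises axonal microtubules. It had 341, 796 and 316 counts in the tumours, against 69 and 67 counts in normal pancreas. In CPM these were 9.06, 24.7 and 21.9 in the tumours, against 5.22 and 4.94 in normal pancreas. In CPM tumour replicate 1 was closer to normal pancreas than to the other tumours. In TPM Mapt had 2.07, 5.82 and 4.76 in the tumours, against 0.46 and 0.47 in normal pancreas. Mapt rose by 1.86 (SE 0.45, edgeR adjusted p = 0.0103), the weakest of the 7 calls, and the edgeR adjusted p missed the threshold at 0.0661 when normal pancreas replicate 1 was left out and at 0.0715 when replicate 2 was.

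Tubb3 (ENSMUSG00000062380.4, chromosome 8, 123411424 to 123422015, + strand) encodes the beta tubulin used as a marker of neurons. It had 302, 207 and 99 counts in the tumours, against 7 and 2 counts in normal pancreas. These were 8.03, 6.41 and 6.86 CPM in the tumours, against 0.529 and 0.147 CPM in normal pancreas. In CPM the tumours lay within 1.25 times of each other. Tubb3 rose by 4.38 (SE 0.46, edgeR adjusted p = 0.000354). Its log2 value was 5.54 when normal pancreas replicate 1 was left out and 3.75 when replicate 2 was.

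Stmn2 was the microtubule gene among the members that did not pass the test. Stmn2 (ENSMUSG00000027500.10, chromosome 3, 8509360 to 8561606, + strand) encodes stathmin 2, a tubulin-binding protein of growth cones and a classical REST target. It had 5, 13 and 14 counts in the tumours, against 34 and 11 counts in normal pancreas. In TPM it had 0.06, 0.20 and 0.35 in the tumours, against 0.41 and 0.42 in normal pancreas, so every tumour was below both normal libraries, an order seen in 9.39% of all genes tested. In CPM the groups overlapped, with 0.133, 0.403 and 0.970 in the tumours, against 2.57 and 0.810 in normal pancreas. Its log2 fold change of -1.87 missed the threshold (SE 0.86, edgeR adjusted p = 0.0944). It passed as lower without tumour replicate 3 (log2 -2.62, edgeR adjusted p = 0.0400) and when scaled on housekeeping genes (log2 -2.36, edgeR adjusted p = 0.0446), and with total counts only its sign was positive (log2 1.25, edgeR adjusted p = 0.198). Its normal TPM were alike although the counts were not. The mean transcript length that RSEM assigned, by which TPM divide, was 2073 bases in normal pancreas replicate 1 and 731 bases in replicate 2. In replicate 2 that length rests on 11 counts divided over 4 annotated transcripts.

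Most other neuronal microtubule genes were called higher. Out of 30 listed neuronal tubulin and microtubule genes 28 entered the test, and 22 rose, 4 fell and 2 did not pass, with a median of 2.699. Over all genes tested 39.2% were higher and 27.8% lower. The list was chosen with earlier results of these data known. When scaled on granule genes none was higher and 18 were lower. Kif1a, an axonal motor, rose by 7.85 (SE 0.38, edgeR adjusted p = 2.92e-05). Dclk1, a kinase related to doublecortin, rose by 6.01 (SE 0.28, edgeR adjusted p = 2.86e-05). Dpysl2, the gene of the growth cone protein CRMP2, rose by 5.36 (SE 0.25, edgeR adjusted p = 2.7e-05) and Map1b, a microtubule protein of growing axons, by 5.07 (SE 0.24, edgeR adjusted p = 2.89e-05). When scaled on granule genes the last 3 had negative values and Kif1a missed the threshold (edgeR adjusted p = 0.162). When normal pancreas replicate 1 was left out, the log2 value of Kif1a was 8.85.
The stathmin genes, chosen after their values were seen, show the contrast with Stmn2. Stmn3 had 219, 401 and 196 counts in the tumours, against 1 and 1 in normal pancreas. Stmn1, the widely expressed stathmin, had 265, 507 and 203 counts in the tumours, against 37 and 35 in normal pancreas. Stmn4, at 5, 41 and 13 counts in the tumours, against 2 and 0 in normal pancreas, did not pass. Of 10 other tubulin genes, most of them widely expressed, 5 were higher and 2 lower, with a median of 0.51, against 39.2% higher and 27.8% lower over all genes tested. With either normal library left out 2 were higher. Among the 5 was Tubb1, a platelet tubulin gene named here after its values were seen, with 40, 18 and 4 counts in the tumours and 0 in both normal libraries. Tubb5 rose by 1.57 (SE 0.18, edgeR adjusted p = 0.000547), Tubb6 by 2.25 (SE 0.24, edgeR adjusted p = 0.000364) and Tuba1b by 1.09 (SE 0.27, edgeR adjusted p = 0.0109), and all 3 were lower when scaled on granule genes. Tuba1b missed the threshold without normal pancreas replicate 1 (edgeR adjusted p = 0.0607), without replicate 2 (edgeR adjusted p = 0.0888) and with housekeeping scaling (edgeR adjusted p = 0.0697). Tuba1c fell by 1.85 (SE 0.32, edgeR adjusted p = 0.00285) and was higher with total counts only, and on log2(TPM + 1) it did not pass (limma adjusted p = 0.559).

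Both neurofilament genes rose, most of all in tumour replicate 1. Nefm (ENSMUSG00000022054.11, chromosome 14, 68082590 to 68124846, - strand), the medium neurofilament subunit, had 2290, 478 and 539 counts in the tumours, against 1 and 2 counts in normal pancreas. The ratio of pooled scaled counts was 350, with a 95% exact interval of 119.7 to 1699 that covers counting error only. Without tumour replicate 1 the ratio was 194. In edgeR it had an adjusted p of 0.000572, and the call was lost when scaled on granule genes (edgeR adjusted p = 0.213).
Nefl (ENSMUSG00000022055.7, chromosome 14, 68083863 to 68089095, + strand), the light subunit on which neurofilaments assemble, had 1252, 307 and 133 counts in the tumours and 0 counts in both normal libraries. Against a floor of 3 counts over the normal group it was at least 179-fold higher (edgeR adjusted p = 0.00273). The bound was 84.1 without tumour replicate 1, 90.8 without normal pancreas replicate 1 and 88.4 without normal pancreas replicate 2. Nefl and Nefm lie on opposite strands and share 1108 exonic bases in GENCODE M21, which is 32.8% of the exonic bases of Nefl and 19.2% of those of Nefm. The labels do not say whether strand was used in counting, so reads from the shared bases cannot be told apart. The ratio of Nefm to Nefl in TPM was 1.85, 1.58 and 4.11 in tumour replicates 1, 2 and 3.

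Peripherin was the neuronal filament gene that stayed near 0 in the tumours. Prph (ENSMUSG00000023484.14, chromosome 15, 99055174 to 99058978, + strand) encodes the filament protein of peripheral, sympathetic and sensory neurons. It had 0, 0 and 1 counts in the tumours, against 0 and 2 in normal pancreas, and was too low to test. At these depths 3 counts, the floor used here, correspond to 0.0797, 0.0929 and 0.208 CPM in the tumours, and a level below these would rest on fewer counts than the floor. The other neuronal filament genes Ina and Nefh were higher. Ina, the internexin of central neurons, had 1044, 1070 and 403 counts in the tumours and 0 in both normal libraries, higher by at least 267-fold (edgeR adjusted p = 2.92e-05), a bound of 135 and 132 when normal pancreas replicate 1 and when replicate 2 was left out. Nefh, the heavy neurofilament subunit, had 591, 562 and 201 counts in the tumours, against 1 and 2 in normal pancreas, a ratio of 143 (interval 48.97 to 696, edgeR adjusted p = 2.62e-05). With granule scaling Nefh missed the threshold (edgeR adjusted p = 0.676).
The list of 16 other intermediate filament genes had 14 tested, with 5 higher, 4 lower and a median of 0.25, shares near the 39.2% and 27.8% of all genes tested. With total counts only 13 were higher and 1 lower. Krt7, a keratin of ducts, rose by 3.12 (SE 0.18, edgeR adjusted p = 4.29e-05) but was lower when scaled on granule genes. Other keratin genes of ducts and epithelium, named after their values were seen, fell, namely Krt19 by 5.93, Krt18 by 1.65 and Krt8 by 1.63. Nes, the nestin gene of progenitor cells, fell by 2.47 (SE 0.14, edgeR adjusted p = 4.15e-05), and with total counts only it was higher.

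Gap43 (ENSMUSG00000047261.9, chromosome 16, 42248442 to 42340651, - strand) encodes a membrane protein of growth cones and regenerating axons. It had 398, 832 and 365 counts in the tumours and 0 in both normal libraries, or 10.6, 25.8 and 25.3 CPM in the tumours. It was higher by at least 169-fold (edgeR adjusted p = 0.000530). That bound was 85.6 when normal pancreas replicate 1 was left out and 83.4 when replicate 2 was. All tumours were apart from normal pancreas, with tumour replicate 1 the lowest. Of 18 other genes of growth cones and the axonal scaffold that were tested, 14 were higher, 1 was lower and 3 did not pass, with a median of 2.42. Over all genes tested 39.2% were higher and 27.8% lower, and this list was chosen with earlier results of these data known. When scaled on granule genes 2 were higher and 13 lower.
Gprin1, a growth cone protein gene, had 1020, 878 and 411 counts in the tumours, against 1 and 0 in normal pancreas, a ratio of 734 (interval 131.5 to 28990, edgeR adjusted p = 2.37e-05). Ank2, the gene of ankyrin B of axons, rose by 7.54 (SE 0.33, edgeR adjusted p = 2.42e-05) and Marcksl1, a membrane-bound actin regulator, by 3.24 (SE 0.24, edgeR adjusted p = 1e-04), the second lower when scaled on granule genes. Sptbn4, the spectrin of the axon initial segment, had a ratio of 195 (interval 66.7 to 947, edgeR adjusted p = 6.87e-05). With granule scaling Gprin1 (edgeR adjusted p = 0.0577), Ank2 (edgeR adjusted p = 0.237) and Sptbn4 (edgeR adjusted p = 0.414) missed the threshold. When normal pancreas replicate 1 was left out, Gprin1 was at least 124-fold higher and Sptbn4 had a ratio of 98.9. When normal pancreas replicate 2 was left out, Gprin1 had a ratio of 362 and Sptbn4 was at least 96.3-fold higher.

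**Figure D2:**
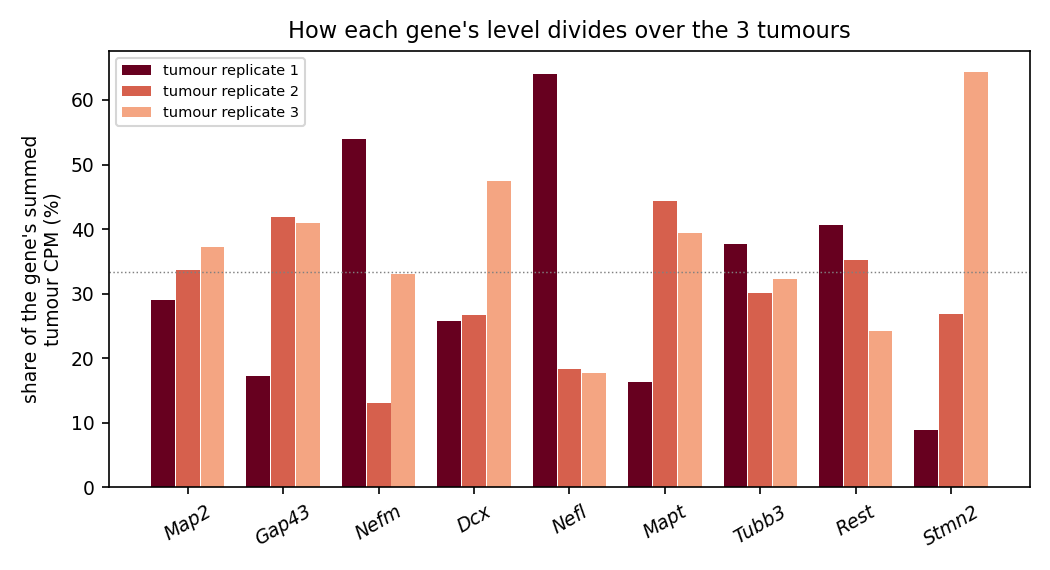
Share of each gene's CPM, summed over the 3 tumours, that each tumour holds, in percent. Bars are single libraries, and the dotted line marks equal shares. Tumour replicate 1 held 64.0% of Nefl and 53.9% of Nefm but 17.2% of Gap43 and 16.3% of Mapt.

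The tumours did not rank alike across the members. Tumour replicate 1 held 64.0% of the Nefl CPM summed over tumours and 53.9% of Nefm, and only 17.2% of Gap43 and 16.3% of Mapt. Tumour replicate 2 held 18.3% of Nefl and 13.1% of Nefm, and 41.8% of Gap43 and 44.3% of Mapt. Tumour replicate 3 held the largest share of Dcx (47.5%) and Stmn2 (64.4%). Of replicates 1 and 2, whose titles share a number, replicate 1 was thus the higher in both neurofilament genes and the lower in Gap43 and Mapt. With 3 libraries these differences were not tested.
RSEM's mean transcript length, a readout that did not choose the members, also set tumour replicate 1 apart for Gap43. It was 995 bases there, against 1420 and 1397 bases in tumour replicates 2 and 3, where the annotated transcripts run from 760 to 1420 bases. Gap43 in tumour replicate 1 was nearer to the other tumours in TPM, at 11.71 against 17.55 and 14.58 TPM in replicates 2 and 3, than in CPM. For Map2 the mean length was 3795, 3805 and 3900 bases in the tumours, against 4204 and 3285 bases in normal pancreas. For Mapt it was 4093, 3742 and 3402 bases in the tumours, against 3619 and 3291 bases in normal pancreas. For these 2 genes the tumour and normal lengths overlapped.

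Rest was below 1 TPM in every library, and its direction depended on the scale. Rest (ENSMUSG00000029249.15, chromosome 5, 77265491 to 77286432, + strand) encodes the repressor of RE1 genes. It had 249, 185 and 57 counts in the tumours, against 111 and 96 in normal pancreas. In CPM it had 6.62, 5.73 and 3.95 in the tumours, against 8.39 and 7.07 in normal pancreas, so every tumour was below both normal libraries. In TPM the order was the other way round, with 0.87, 0.71 and 0.41 in the tumours, against 0.38 and 0.31 in normal pancreas. All tumours had lower CPM than both normal libraries in 34.2% of the genes tested, and higher TPM in 76.1%.
The log2 fold change of Rest, -0.50, missed the threshold (SE 0.26, edgeR adjusted p = 0.131). It passed as lower when scaled on 12 housekeeping genes (log2 -0.98, SE 0.26, edgeR adjusted p = 0.0154) and as higher with total counts only (log2 2.696, SE 0.35, edgeR adjusted p = 0.000239). On log2(TPM + 1) limma gave 0.30 (adjusted p = 0.109). No direction can be given for Rest that holds across these scalings. Among protein-coding genes of the same library, Rest lay at the 49.8, 47.5 and 45.3 percentile in the tumours and at the 57.5 and 55.9 percentile in normal pancreas. No scaling between libraries affects a percentile, but it depends on how many genes a library detects. Genes at 0 TPM lay at the 13.1 and 13.2 percentile in tumour replicates 1 and 2, against 17.5 and 17.8 in normal pancreas. The share of all genes with this order was not counted, so it gives no direction either. The mean transcript length ran only from 6945 to 7004 bases over all 5 libraries, between annotated transcripts of 6924 and 7004 bases.

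**Figure D3:**
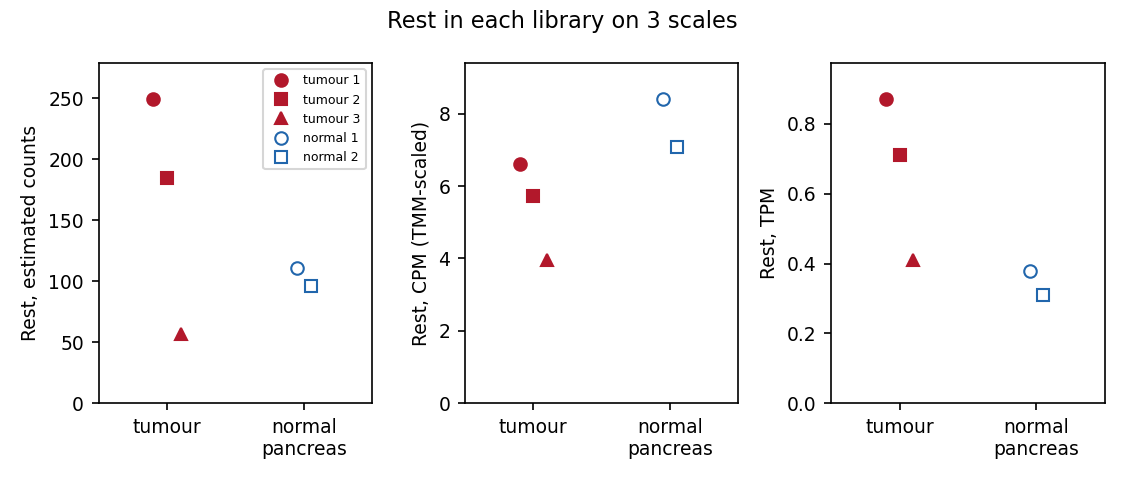
Rest in each library as estimated counts, as TMM-scaled CPM and as TPM, each on an axis from 0. Filled red symbols are tumours and open blue symbols normal pancreas. The tumours lie below both normal libraries in CPM and above both in TPM.

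Within a library the ratio of 2 genes needs no scaling between libraries. For the 7 members that rose, the ratio to Rest was higher in every tumour than in both normal libraries. This order adds little, because Rest itself was lower in CPM in every tumour. Any gene with higher CPM in every tumour, as 46.8% of all genes tested, then has this order in ratios of CPM. The share of all genes with this order in TPM was not counted. Dcx was at 6.17, 7.76 and 18.3 times the TPM of Rest in the tumours, against 0.0526 and 0.0323 times in normal pancreas. Map2 was at 42.7, 56.8 and 88.7 times Rest in the tumours, against 7.13 and 12.5 times in normal pancreas. Mapt was nearest to overlap, at 2.38, 8.20 and 11.6 times in the tumours, against 1.21 and 1.52 times in normal pancreas. Stmn2 ran the other way, at 0.0690, 0.282 and 0.854 times Rest in the tumours, against 1.08 and 1.35 times in normal pancreas.
The 3 protein-coding genes whose log2(TPM + 1) over the 5 libraries, each centred on its mean, lay nearest to Rest were Ramac, Bad and Pitpnb. They differed from Rest by 0.0135, 0.0136 and 0.0213 on average, and 396 of 6179 genes considered lay within 0.1, so this pattern is a common one.

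Known targets of REST, listed from general knowledge and not from binding data, were higher in the tumours in 29 of 30 cases by edgeR, with 1 not past the test and none lower, also by DESeq2. Several of these genes were known to be high in these tumours when the list was written, so the count is no independent evidence of direction. DESeq2 called 30 higher, and over all genes tested 39.2% were higher. The median was 8.86, or 7.15 with the 13 genes at 0 in normal pancreas placed at their bounds. When scaled on granule genes, some of which are on both lists, 13 were higher and 7 lower. Celsr3, a cadherin of axon guidance, had 2946, 2214 and 1016 counts in the tumours and 0 in both normal libraries, at least 654-fold higher (edgeR adjusted p = 2.37e-05), a bound of 331 and 323 when normal pancreas replicate 1 and when replicate 2 was left out. Unc13a, a synaptic vesicle priming gene, rose by 8.37 (SE 0.29, edgeR adjusted p = 1.75e-05) and missed the threshold with granule scaling (edgeR adjusted p = 0.113). The ratio was 684 for Rab3c (interval 189 to 5651, edgeR adjusted p = 1.63e-05), a GTPase of vesicles, and 1075 for Disp2 (interval 368 to 5213, edgeR adjusted p = 2.08e-05). Stmn2, a target left out of this list because it is a member, was at 5 to 14 counts in the tumours, in the same libraries.

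Genes that work with REST were called about as often as all genes tested, of which 39.2% were higher and 27.8% lower. Among 18 listed corepressor genes 17 entered the test, and 7 rose, 5 fell and 5 did not pass, with a median of 0.32. With total counts only 15 were higher and none lower, and with granule scaling all 17 were lower. Ctdspl and Ctdsp1, genes of small phosphatases that act with REST, fell by 3.10 (SE 0.17, edgeR adjusted p = 3.96e-05) and 2.92 (SE 0.16, edgeR adjusted p = 4.08e-05), and both had values slightly above 0 with total counts only. Hmg20b, a subunit of the LSD1 complex, fell by 1.70 (SE 0.19, edgeR adjusted p = 0.000459) but was higher with total counts only, and on log2(TPM + 1) it did not pass (limma adjusted p = 0.387).
Of 8 listed regulators of REST, 5 rose, 1 fell and 2 did not pass, and with total counts only all 8 were higher, with granule scaling none. When either normal library was left out, 3 were called higher and none lower. Srrm4, a neuronal splicing factor that in mouse and human promotes a truncated REST, had 614, 304 and 261 counts in the tumours, against 0 and 1 in normal pancreas, a ratio of 375 (interval 67.1 to 14810, edgeR adjusted p = 0.000132). Its paralog Srrm3 had 287, 202 and 91 counts in the tumours, against 1 and 0 in normal pancreas, a ratio of 184 (interval 32.95 to 7291, edgeR adjusted p = 0.000120). When normal pancreas replicate 1 was left out, Srrm4 had a ratio of 190 and Srrm3 was at least 31.1-fold higher. When normal pancreas replicate 2 was left out, Srrm4 was at least 61.6-fold higher and Srrm3 had a ratio of 90.9. With granule scaling Srrm4 (edgeR adjusted p = 0.274) and Srrm3 (edgeR adjusted p = 0.653) missed the threshold. Btrc, an adaptor of the ubiquitin ligase that degrades REST, rose by 0.99 (SE 0.17, edgeR adjusted p = 0.00240) and was lower with granule scaling.

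**Figure D4:**
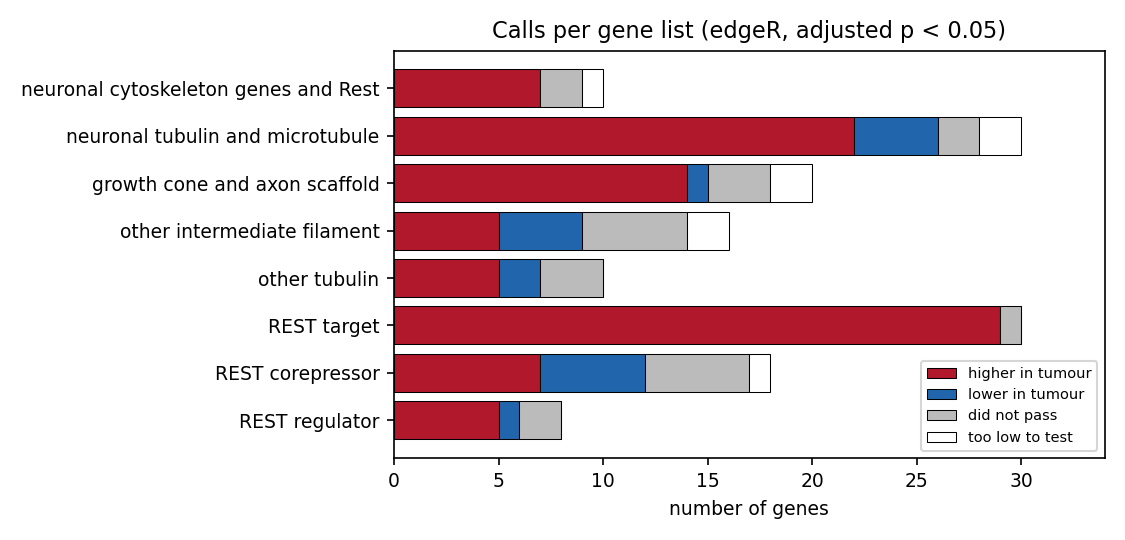
Number of genes per list that were higher in tumour, lower, not past the test or too low to test (edgeR adjusted p under 0.05, TMM scaling). Of the REST targets 29 of 30 were higher, and of the REST corepressors 7 were higher and 5 lower. When scaled on granule genes no neuronal microtubule gene and no corepressor was higher.

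The scaling on granule genes sets the members against the listed secretory granule genes of the same libraries. Its factors came from 16 genes with counts in every library, and the granule list itself had a median log2 fold change of 6.73 with TMM. At equal level of these genes Dcx and Nefm did not pass, and Tubb3 (log2 -2.31, edgeR adjusted p = 0.0255), Mapt (log2 -4.67, SE 0.66) and Map2 (log2 -4.48, SE 0.60) were lower. Gap43 (log2 11.65, SE 4.56) and Nefl (log2 11.14, SE 4.98) were called higher. Both had 0 counts in normal pancreas, so these values depend on the prior count and give no direction at this scaling. The standard errors leave out the error of the reference genes.

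**Figure D5:**
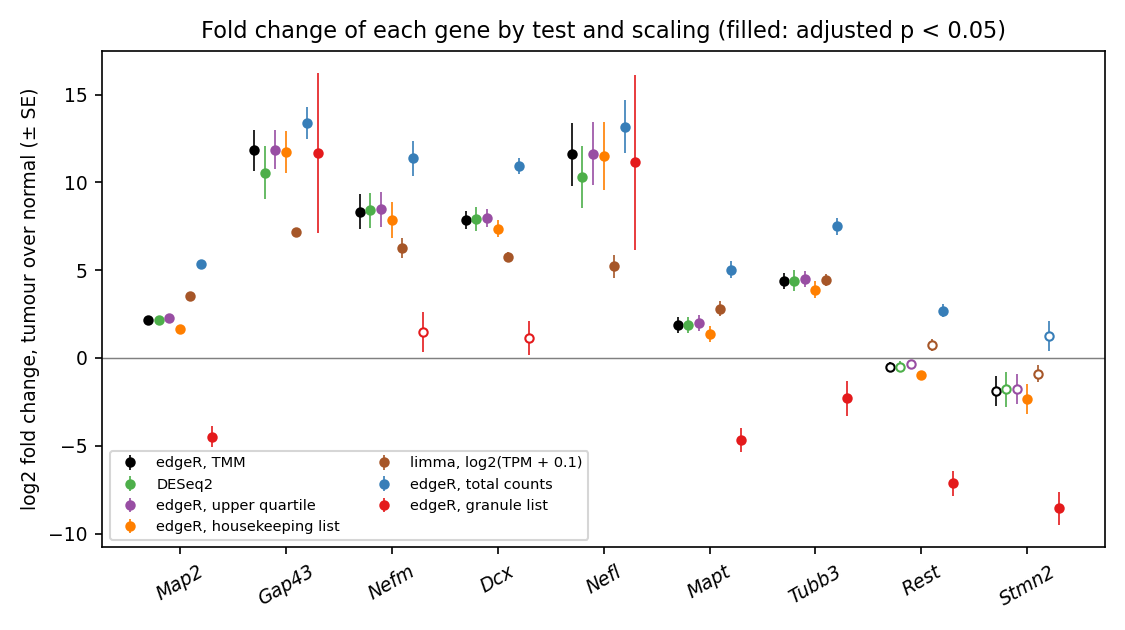
Log2 fold change (tumour over normal pancreas, ± SE) of 9 genes under 7 tests or scalings, with filled points at an adjusted p under 0.05. Map2, Mapt and Tubb3 lie above 0 under all of them but the granule scaling, and Rest lies on both sides of 0. Values of Gap43 and Nefl, at 0 counts in normal pancreas, depend on the prior count and are no measure of size.

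The summed levels of neuron, islet, and fibroblast and smooth muscle markers were higher in every tumour than in both normal libraries. The summed level of 21 markers of sympathetic and sensory neurons was 79.2 to 154 CPM in the tumours, against 16.2 and 18.0 CPM in normal pancreas. Of the 12 tested, 9 were higher. For this and the other marker counts, 39.2% of all genes tested were higher and 27.8% lower. Dbh, the enzyme that makes noradrenaline in sympathetic neurons, was at 0 counts in all 5 libraries. Npy, a neuropeptide of sympathetic neurons and also of islet cells, had 2798, 51 and 512 counts in the tumours, against 1 and 0 in normal pancreas. The 12 Schwann and glial markers summed to 32.6 to 41.8 CPM in the tumours, against 61.5 and 59.4 CPM in normal pancreas. In TPM the order was the other way round, at 9.25, 6.96 and 7.66 in the tumours, against 4.14 and 3.98 in normal pancreas. No direction can thus be given for this sum. Of 6 tested, 3 were higher and 2 lower, and Sox10 was at 1 or 2 counts in every library. The 12 islet markers summed to 10100 to 24700 CPM in the tumours, against 65.6 and 70.8 CPM in normal pancreas. The 10 fibroblast and smooth muscle markers summed to 351, 603 and 525 CPM in the tumours, against 317 and 250 CPM in normal pancreas, with 7 higher and 2 lower. The 8 duct markers summed to 98.8 to 193 CPM in the tumours, against 537 and 556 CPM in normal pancreas, with 2 higher and 4 lower. In TPM the groups overlapped, at 98.3, 41.9 and 69.0 in the tumours, against 98.3 and 94.7 in normal pancreas. The part of these cell types, or of the RNA class difference, in the members' values was not tested.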

How the data were processed

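The members and gene lists were chosen with earlier results of these data known. The tools used were Trim Galore 0.60, STAR 2.7 and RSEM 1.31 on mm10 and GRCm38, per the submitters' processing notes. Strand, settings and annotation release: not given in the sources used here. Estimated counts (expected counts) that the authors deposited are RSEM output per gene, as the submitters' processing notes name that tool and the column headers are its own. TPM of the same genes are the authors' deposited values, and the mean transcript length, of another kind in bases, stands in the deposited per-library files. FPKM were not used. Spike-in rows, 92 with 0 counts, stayed out.

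The estimated counts, rounded, went into edgeR 4.0.16 in R 4.3.3 (TMM, filterByExpr, glmQLFit, glmQLFTest, Benjamini-Hochberg over 16810 genes), after a check on simulated data. That check changed few genes, as many up as down, so it could not test the scaling between libraries of different makeup. An SE is the log2 fold change, without its sign, over the root of F. Genes at 0 in a group are given as a bound against a floor of 3 counts over that group, and those with 1 to 3 counts as a ratio with a 95% exact binomial interval. Both cover counting error only. Alternatives were DESeq2 1.42.0, limma 3.58.1 on log2(TPM + 1) and log2(TPM + 0.1), other scalings and filters, and left-out libraries. Housekeeping and granule scaling used the median of ratios over 12 and 16 listed genes. Mean lengths are given from 10 counts of a gene upward. The 10 members and, per list, the 4 tested genes with the smallest p are named, except a few that are not reported here. Coordinates are from GENCODE M21 (GRCm38), whose identifiers match 55180 of 55573 in the table. RE1 was searched in promoter windows of 300 bases and nowhere else.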

Additional observations from a re-analysis of the deposited data

How the results depend on the processing

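The members called higher numbered 8 with total counts only, 2 with granule scaling, 6 with either normal library left out and 7 otherwise. Members called lower numbered 2 with housekeeping scaling (Rest and Stmn2), 5 with granule scaling, 1 without tumour replicate 3 (Stmn2) and 0 otherwise. Among log2 fold changes, Rest ran from -0.65 to -0.29 with single libraries left out, was -0.98 and -7.14 with housekeeping and granule scaling, and was 2.696, 0.30 and 0.73 with total counts only and on the TPM scales with 1 and 0.1 added. Stmn2 ran from -2.62 to -0.78 with single libraries left out, was -2.36 and -8.57 with housekeeping and granule scaling, and 1.25 with total counts only. Mapt ran from 1.59 to 2.21 with single libraries left out. With total counts only Ctdspl (0.0797), Ctdsp1 (0.26), Nes (0.72), Tuba1c (1.35) and Hmg20b (1.48) also turned positive. Granule scaling gave 1.15 for Dcx and 1.497 for Nefm, short of the threshold, as were Kif1a (1.20), Ank2 (0.93), Gprin1 (2.86), Sptbn4 (1.03), Nefh (0.53), Srrm3 (0.81), Srrm4 (1.82) and Unc13a (1.72), and turned Tubb3 (-2.31), Map2 (-4.48), Mapt (-4.67), Dclk1 (-0.56), Dpysl2 (-1.295), Map1b (-1.57), Marcksl1 (-3.35), Krt7 (-3.57), Tubb6 (-4.43), Tubb5 (-5.09), Tuba1b (-5.47) and Btrc (-5.71) negative. Tuba1c and Hmg20b lost their calls on both TPM scales, and Tuba1b lost its call with housekeeping scaling. By construction granule scaling takes the rise of the granule genes off every gene. Its calls of Gap43 and Nefl as higher depend on the prior count, as both had 0 counts in normal pancreas. The cause of the other shifts was not tested.

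Counts of higher genes per list moved by over 1.5 times as follows. With granule scaling they were 0 neuronal microtubule, 2 growth cone, 1 intermediate filament, 0 other tubulin, 0 corepressor and 0 regulator genes and 13 REST targets. With total counts only they were 13 intermediate filament, 10 tubulin, 15 corepressor and 8 regulator genes, and on both TPM scales 9 intermediate filament, 13 corepressor and 8 regulator genes. Housekeeping scaling left 3 tubulin, 2 corepressor and 3 regulator genes. With single libraries left out, tubulins ran from 2 to 5 and regulators from 3 to 5. Counts of lower genes with granule scaling were 18 neuronal microtubule, 13 growth cone, 12 intermediate filament, 9 tubulin, 17 corepressor and 6 regulator genes and 7 REST targets. With total counts only they were 0, 0, 1, 0, 0 and 0 for the first 6 of these lists, and on both TPM scales 2, 0, 2, 0, 2 and 0. Housekeeping scaling gave 2 growth cone and 2 regulator genes. Tumour replicates 1 and 2 summed gave 2 growth cone genes and 1 tubulin, and upper-quartile scaling or no filter 1 tubulin. With single libraries left out, lower genes ran from 2 to 4 (neuronal microtubule), 1 to 2 (growth cone), 1 to 2 (tubulin), 3 to 6 (corepressor) and 0 to 1 (regulator). The neuronal microtubule and corepressor lists had their lowest counts without normal pancreas replicate 2, and the growth cone list its highest without tumour replicate 2. The tubulin count was 1 without any single library except tumour replicate 3, and the regulator count 0 with either normal library left out.

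Over all genes, 6587 were higher and 4669 lower by TMM, 15681 and 398 with total counts only, 10665 and 1173 on log2(TPM + 1), 11558 and 1192 on log2(TPM + 0.1), 163 and 14037 with granule scaling, and 5097 and 6355 with housekeeping scaling. A minimum of 50 counts for a mean length left 30 of 34 values. No paired analysis was possible because the replicate numbers follow accession order and no label ties a tumour to a normal pancreas. Counts of 0 to 34 in normal pancreas limit every member there except Map2, Mapt and Rest, which had 67 counts or more.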
